A study of Homo sapiens with 6 samples.

Results

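The mitochondrial carriers of the SLC25 family, with the uncoupling proteins that belong to the same family, were measured in NCI-H295A cells, a steroid-producing line from a human adrenocortical carcinoma. Members were chosen by name alone, as the genes whose symbol starts with SLC25A or is UCP1, UCP2 or UCP3 and that have a probe set with 1 symbol. This gave 31 of 11963 genes on the array, read by 46 probe sets, and each gene was represented by its probe set with the highest mean log2 signal. RNA came from 3 samples of cells exposed for 18 h to 8-Br-cAMP (1 mM) and from 3 samples incubated without it, numbered 1 to 3 in both groups. 8-Br-cAMP enters cells and acts in place of cAMP, which carries the signal of the pituitary hormone ACTH in adrenocortical cells. Cells of both groups were nearly confluent, in RPMI 1640 medium to which fetal calf serum (2%), insulin, selenium and gentamicin had been added. Separate cultures are not stated, so p-values measure the spread between samples that may differ only technically.

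SLC25 proteins sit mostly in the inner mitochondrial membrane and exchange nucleotides, phosphate, carboxylates, amino acids, cofactors and acylcarnitines between the cytosol and the matrix. The first step of steroid synthesis and the last steps towards cortisol and aldosterone take place in adrenocortical mitochondria. The heme of the P450 enzymes is completed there from imported iron, and citrate exported by a carrier supplies acetyl-CoA for cholesterol synthesis in the cytosol.

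The line showed its adrenocortical markers, with all 9 of those on the array (NR5A1, STAR, CYP11A1, CYP17A1, HSD3B2, MC2R, INHA, SCARB1, FDX1) above the level used to filter dim probe sets, a signal of 45.5. Their summed signal was 27158.6 to 54390.3 on 8-Br-cAMP arrays and 8215.7 to 27764.2 on control arrays. Above that level were 1 of 6 markers of the adrenal medulla (CHGB), 3 of 6 of fibroblasts (COL1A1, COL3A1, DCN), 2 of 5 of endothelium (PECAM1, VWF), 0 of 3 of leukocytes and 0 of 4 of brown fat. Summed fibroblast markers were at 429.5 to 517.4 after 8-Br-cAMP and 610 to 1240 in controls, and summed endothelial markers at 304.7 to 419.4 after 8-Br-cAMP and 183.4 to 231.4 in controls. The part of these in the carrier results was not tested. The number 1 arrays stood apart in both groups. The 3'/5' signal ratio of the actin control, a measure of RNA integrity, was 38.8 on 8-Br-cAMP 1 and 5.72 on control 1, against 1.93 to 2.41 on the other arrays. The counts are therefore given for all 6 arrays, with a replicate block for the sample number (the paired fit), and without both number 1 arrays, unblocked unless a block is named. The labels do not say that arrays of the same number are pairs.

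No carrier passed the test for a response to 8-Br-cAMP on all 6 arrays. Of the 31 genes, 25 had a mean signal above the filter level and were tested, and 0 of them had an adjusted p under 0.05 with limma, either without a block or in the paired fit. Over all 7927 genes tested these calls made up 0.0% without a block and 3.68% in the paired fit. At an unadjusted p under 0.05 there were 4 carriers without a block (SLC25A12, SLC25A20, SLC25A24, SLC25A37) and 7 in the paired fit, which added SLC25A14, SLC25A28 and SLC25A36. SLC25A37 was higher and the others lower. Over all genes the shares were 11.9% without a block (4.09% higher, 7.86% lower) and 22.4% paired (7.8% higher, 14.6% lower). In 5 of the 25 the groups did not overlap, a share of 20%, against 19.9% of all genes. SLC25A3 and SLC25A37 were the higher ones (6.32% of all genes) and SLC25A12, SLC25A20 and SLC25A24 the lower ones (13.6%). The median log2 difference (8-Br-cAMP minus control) of the 25 was 0.00, with 13 above 0 and 12 below, and that of all genes tested was -0.14. A lower signal here cannot tell fewer cells with the transcript from less transcript per cell.

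When both number 1 arrays were omitted, 7 of the 25 carriers passed. In that fit SLC25A5, SLC25A15 and SLC25A32 rose and SLC25A12, SLC25A14, SLC25A20 and SLC25A36 fell. Over all genes 12.8% rose and 20.5% fell in the same fit, and 33.3% passed, against 28% of the carriers. Its p-values rest on arrays 2 and 3 alone, which correlated at 0.980 after 8-Br-cAMP and 0.961 in controls across kept probe sets. With the replicate block on the same 4 arrays 9 of the 25 passed (36%, against 37.6% of all genes), which added SLC25A37 as higher and SLC25A24 as lower. Over all genes 14.1% rose and 23.5% fell with that block. When no dim probe sets were filtered out, 4 of the 31 passed on these arrays without a block: SLC25A32 was higher, and SLC25A12, SLC25A20 and SLC25A36 were lower. The share of all genes that passed was not counted for that fit.

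**Figure D1:**
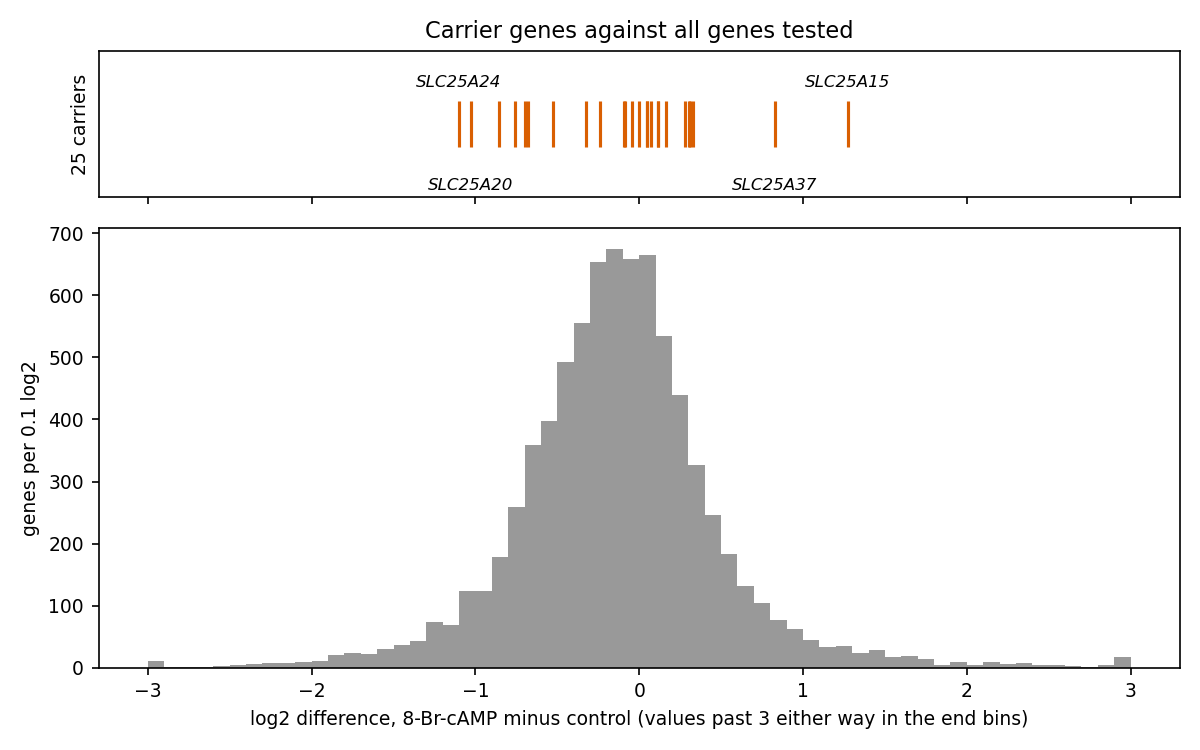
Log2 differences (8-Br-cAMP minus control, x axis) of the 25 tested carriers, as marks in the upper panel, over the histogram of all 7927 genes tested, in bins of 0.1. The carriers run from -1.10 for SLC25A24 to 1.27 for SLC25A15. These 2 lie past the bounds of the lowest and highest 5% of all genes, -1.09 and 0.84.

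The carnitine carrier gene SLC25A20 had the smallest p of the family in the paired fit. Its product brings fatty acids into the matrix as acylcarnitines and returns free carnitine. Signals were 280, 155.3 and 154.9 on 8-Br-cAMP arrays 1, 2 and 3, against 557.8, 335.7 and 305.6 on control arrays 1, 2 and 3. Every 8-Br-cAMP array lay below every control array, and the number 1 array was the highest in both groups. The log2 signal averaged 7.56 ± 0.49 after 8-Br-cAMP and 8.59 ± 0.47 in controls (SD, n = 3 each). It differed by -1.03 on the log2 scale, and by -0.99, -1.11 and -0.98 in pairs 1, 2 and 3. Its adjusted p in limma was 0.354 without a block (SE 0.37) and 0.0517 in the paired fit (SE 0.20, 95% interval -1.52 to -0.54). Without both number 1 arrays SLC25A20 fell by 1.05 on the log2 scale (adjusted p = 0.00200). The paired adjusted p thus lay just past the threshold, and it fell under 0.05 in 6 other settings of the paired fit, given with the alternatives at the end. It stayed above 0.05 with quantile normalization (0.0867), a common median (0.127), no filter (0.0585), no intensity trend (0.0918) and robust variances (0.0546). In the paired fit without pair 2 it was 0.233, and without pair 3 it was 0.281.

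SLC25A36 carries pyrimidine nucleotides into mitochondria, where they feed DNA and RNA synthesis. Its signals were 517.6, 1297.7 and 1312.7 after 8-Br-cAMP, against 800.3, 2222.3 and 2387.9 in controls. The groups overlapped through control 1, and both number 1 arrays were low, while within each pair the 8-Br-cAMP array was the lower one. SLC25A36 differed by -0.76 (pairs -0.63, -0.78 and -0.86), with an adjusted p of 0.699 without a block and 0.0776 in the paired fit (SE 0.18). Without both number 1 arrays it fell by 0.82 (adjusted p = 0.000759). Its other 2 probe sets differed by -0.73 and -0.65, with paired adjusted p of 0.0921 and 0.164, and both passed without the number 1 arrays.

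The aspartate/glutamate carriers SLC25A12 and SLC25A13 serve the malate-aspartate shuttle, which moves reducing equivalents of NADH into the matrix. SLC25A12 had signals of 179.3, 130.6 and 161.6 after 8-Br-cAMP, against 188, 403.1 and 296.5 in controls. The groups did not overlap, but the number 1 arrays nearly met. SLC25A12 differed by -0.86 (pairs -0.07, -1.63 and -0.88), with an adjusted p of 0.424 without a block and 0.20 in the paired fit. Without both number 1 arrays SLC25A12 fell by 1.25 (adjusted p = 0.00296), and its second probe set also passed there (-1.27, adjusted p = 0.00735). SLC25A13 had 597.3, 546.6 and 624.6 after 8-Br-cAMP and 690.4, 486.7 and 549.4 in controls. Its log2 difference was 0.05 (95% interval -0.54 to 0.64 without a block).

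SLC25A24 and SLC25A23 encode calcium-regulated carriers that exchange ATP-Mg for phosphate and so set the adenine nucleotide content of the matrix. SLC25A24 had signals of 78.1, 86.7 and 106.6 after 8-Br-cAMP, against 262.7, 111 and 245 in controls. The groups did not overlap, and control 2 lay close to the 8-Br-cAMP arrays. Its log2 difference of -1.10 (SE 0.39) was the lowest among the tested carriers, with an adjusted p of 0.350 without a block and 0.123 in the paired fit. Without the number 1 arrays it differed by -0.78, with an adjusted p of 0.136 unblocked and 0.0283 with the replicate block. SLC25A23 lay below the filter level on average, with 24.5, 16.9 and 22.4 after 8-Br-cAMP and 87.1, 67.7 and 58.8 in controls. All of its control signals were above the filter level and all 8-Br-cAMP signals below it. SLC25A23 differed by -1.74 (pairs -1.83, -2.0 and -1.39). In the fit of all probe sets with no filter its adjusted p was 0.292 without a block, 0.144 with the block and 0.0671 without the number 1 arrays, and a fold from such low signals is imprecise.

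Of the carriers of ATP, ADP and phosphate that serve oxidative phosphorylation, none passed on all 6 arrays. SLC25A3, which imports the phosphate used by ATP synthase, had signals of 7236.2, 6163.3 and 6675.5 after 8-Br-cAMP, against 5802.9, 5951.8 and 4562.4 in controls. The groups did not overlap, and the gap between them was small. The log2 difference was 0.31 (95% interval -0.18 to 0.79, adjusted p = 0.671 without a block; paired adjusted p = 0.371). SLC25A5, an ADP/ATP carrier of proliferating cells, had 2579.6, 3214 and 3415.2 after 8-Br-cAMP and 2317.3, 2802.7 and 2435.2 in controls. It differed by 0.28 (-0.25 to 0.81, adjusted p = 0.731) and was higher in every pair, and without the number 1 arrays it rose by 0.34 (adjusted p = 0.0459). SLC25A4, the ADP/ATP carrier of heart and muscle, had 235.1, 179.2 and 132.3 after 8-Br-cAMP and 116.7, 191.8 and 215.7 in controls. Its pairs 1, 2 and 3 gave 1.01, -0.10 and -0.71, so that the mean difference of 0.07 joined opposite values (adjusted p = 0.974 without a block, 0.937 paired). A second SLC25A4 probe set, below the filter level on average, was lower in every pair (-1.07, -1.77 and -1). SLC25A31, the ADP/ATP carrier of testis, had signals of 4.3 to 16.8 over all arrays, below the filter level. SLC25A6 had no probe set with 1 symbol and was not analysed here. On the spike-in scale, where hybridisation controls set the arrays level, the differences of SLC25A3, SLC25A5 and SLC25A4 were below 0 (-0.0655, -0.0914 and -0.30). That scaling moved the median of all kept probe sets to -0.50, against -0.13 as deposited, -0.03 after quantile normalization and 0.09 with a common median.

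**Figure D2:**
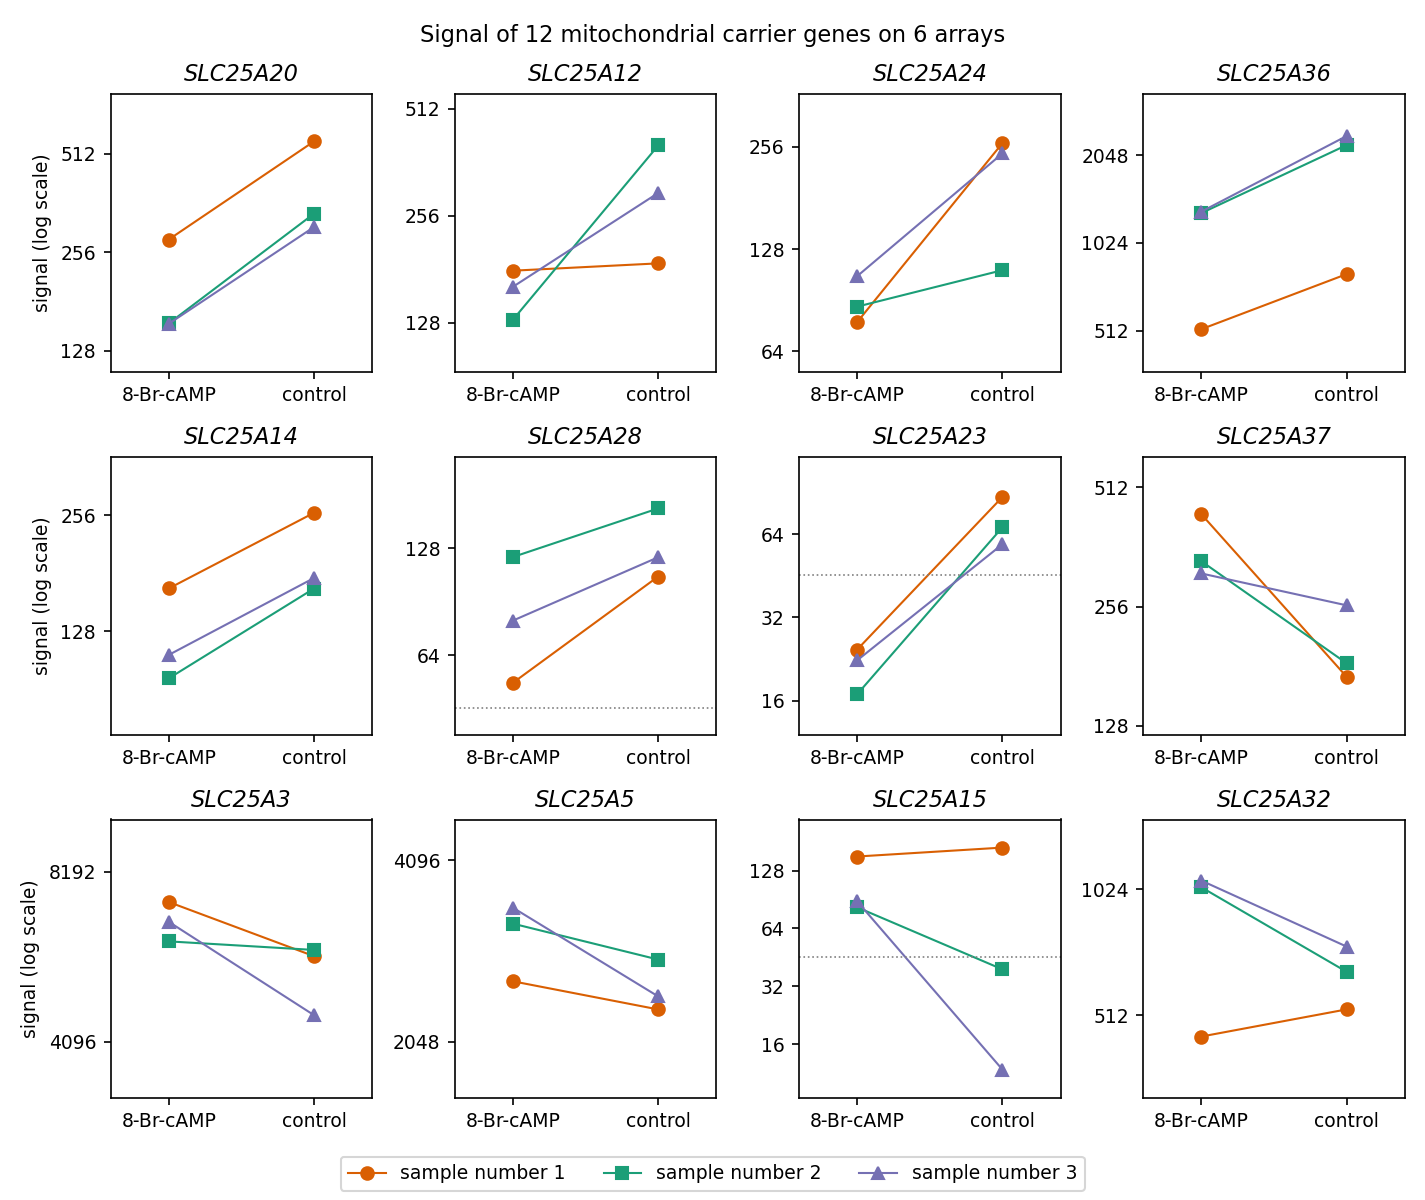
Signal on each of the 6 arrays (y axis, log scale) for 12 carrier genes, 8-Br-cAMP left and control right, with lines joining arrays of the same sample number and a dotted line at the filter level of 45.5 where it falls in the panel. Lines of SLC25A20, SLC25A36 and SLC25A14 run nearly parallel, while those of SLC25A15 and SLC25A32 turn the other way for number 1.

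The mitoferrins SLC25A37 and SLC25A28 import iron for heme and iron-sulfur clusters. SLC25A37, the form best known from red cell precursors, had 437.7, 333.1 and 310.3 after 8-Br-cAMP, against 170.1, 184 and 257.8 in controls. Every 8-Br-cAMP array was above every control array. The log2 difference was 0.83 (pairs 1.36, 0.86 and 0.27), with an adjusted p of 0.334 without a block (SE 0.29), 0.149 in the paired fit and 0.0563 without the number 1 arrays (0.0270 there with the replicate block). Its other 2 kept probe sets differed by -0.17 and 0.04, so the probe sets of this gene disagreed. SLC25A28, the more widely expressed form, had 53.6, 121.1 and 80.2 after 8-Br-cAMP and 106.7, 165.9 and 120.9 in controls. It was lower in every pair by 0.45 or more (log2 difference -0.68, adjusted p = 0.591 without a block and 0.224 paired), although 8-Br-cAMP 2 lay above controls 1 and 3, so that the groups overlapped.

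SLC25A15, a carrier of amino acids, had the highest difference and the widest spread among the 25 tested genes. It exchanges ornithine for citrulline in the urea cycle. Signals were 151.5, 82.4 and 88.5 after 8-Br-cAMP, against 168.6, 39.2 and 11.8 in controls. Controls 2 and 3 lay below the filter level and control 1 was the highest of all 6 arrays. The log2 difference was 1.27 (95% interval -0.84 to 3.39, adjusted p = 0.687 without a block; 0.271 paired), made of -0.15, 1.07 and 2.91 in the pairs. Without the number 1 arrays it rose by 1.99 (adjusted p = 0.0428), a value that rests on the 2 dim control signals. The glutamate carrier SLC25A22, the glycine carrier SLC25A38, SLC25A40, linked to glutathione import, and SLC25A44, a carrier of branched-chain amino acids, differed by 0.16, 0.11, -0.05 and 0.31. None of these passed in any of the 3 fits. SLC25A22 differed by 1.07, -1.05 and 0.46 in the pairs, so even pairs 2 and 3 disagreed.

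The carriers of di- and tricarboxylates differed between the pairs. SLC25A1 exports citrate, the source of cytosolic acetyl-CoA. Its signals were 1219.9, 229.3 and 228.8 after 8-Br-cAMP, against 748.4, 231.8 and 368.2 in controls. The number 1 arrays were far above the rest in both groups, and the mean log2 difference was 0.00 (95% interval -0.70 to 0.71 in the paired fit), from 0.70, -0.02 and -0.69 in the pairs. SLC25A10, the dicarboxylate carrier, and SLC25A11, which exchanges oxoglutarate for malate, had the same pattern of a positive pair 1 (0.79 and 0.34) and negative pairs 2 (-0.62 and -0.29) and 3 (-1.74 and -0.75). A second kept probe set of SLC25A11 was negative in all pairs (-0.19, -0.34 and -0.21). Without the number 1 arrays SLC25A10 and SLC25A11 had adjusted p of 0.117 and 0.0943. SLC25A21, a carrier of oxodicarboxylates, had signals of 1.5 to 3.4 after 8-Br-cAMP and 3.8 to 13.4 in controls, too low to be tested with the filter. Without a filter its adjusted p was 0.592.

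Carriers of cofactors included SLC25A32, which brings folate and FAD precursors of mitochondrial one-carbon and redox reactions into the matrix. It had 455.1, 1034.1 and 1073 after 8-Br-cAMP, against 528.4, 649.8 and 746.4 in controls. The 8-Br-cAMP arrays 2 and 3 were the highest and 8-Br-cAMP 1 the lowest of all arrays. SLC25A32 differed by 0.33 (adjusted p = 0.844 without a block, 0.480 paired), and without the number 1 arrays it rose by 0.60 (adjusted p = 0.00684). SLC25A17, a peroxisomal carrier of cofactors, differed least between pairs, by 0.06, 0.02 and 0.06 (paired 95% interval of the mean difference -0.45 to 0.54). A second SLC25A17 probe set, below the filter level, gave -1.35, 0.20 and 0.10. SLC25A16, linked to coenzyme A, differed by -0.09 on a probe set that the array design marks as open to cross-hybridisation, and its other 2 kept probe sets by -0.04 and -0.09. SLC25A42, a coenzyme A carrier, was below the filter level. SLC25A46, an outer membrane member that takes part in mitochondrial dynamics, differed by -0.09 (paired interval -0.58 to 0.41).

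Of the uncoupling proteins and their relatives, SLC25A14 was lower in every pair and by a like amount. It is related in sequence to the uncoupling proteins. Signals were 165.1, 96.5 and 111 after 8-Br-cAMP, against 259.4, 165 and 175.7 in controls, so the groups overlapped only through 8-Br-cAMP 1, just above control 2. The log2 difference was -0.70 (pairs -0.65, -0.77 and -0.66), with an adjusted p of 0.499 without a block, 0.151 paired and 0.0302 without the number 1 arrays (-0.72). Its second kept probe set differed by -1.14, less evenly over the pairs (-1.81, -0.73 and -0.89). Its 8-Br-cAMP signals of 19.1, 44.9 and 41.6 were all below the filter level. This probe set did not pass without the number 1 arrays (adjusted p = 0.116). UCP2, which exports carbon metabolites from the matrix, had 22.2, 85.2 and 90.4 after 8-Br-cAMP and 26.7, 108.5 and 115.7 in controls. It was lower in every pair by 0.27 or more (log2 difference -0.32, paired 95% interval -1.13 to 0.49), and both number 1 arrays were below the filter level. A second UCP2 probe set, below the filter level on all arrays (signals 2.5 to 21), was higher in every pair (1, 0.12 and 2.63). UCP3, the form of skeletal muscle, differed by 1.72, -0.92 and -0.46 in the pairs (adjusted p = 0.974 without a block, 0.938 paired). UCP1, the proton leak of brown fat, had signals of 2.1 to 25 over all arrays and SLC25A30 signals of 20.5 to 49.8, and both were below the filter level on average.

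**Figure D3:**
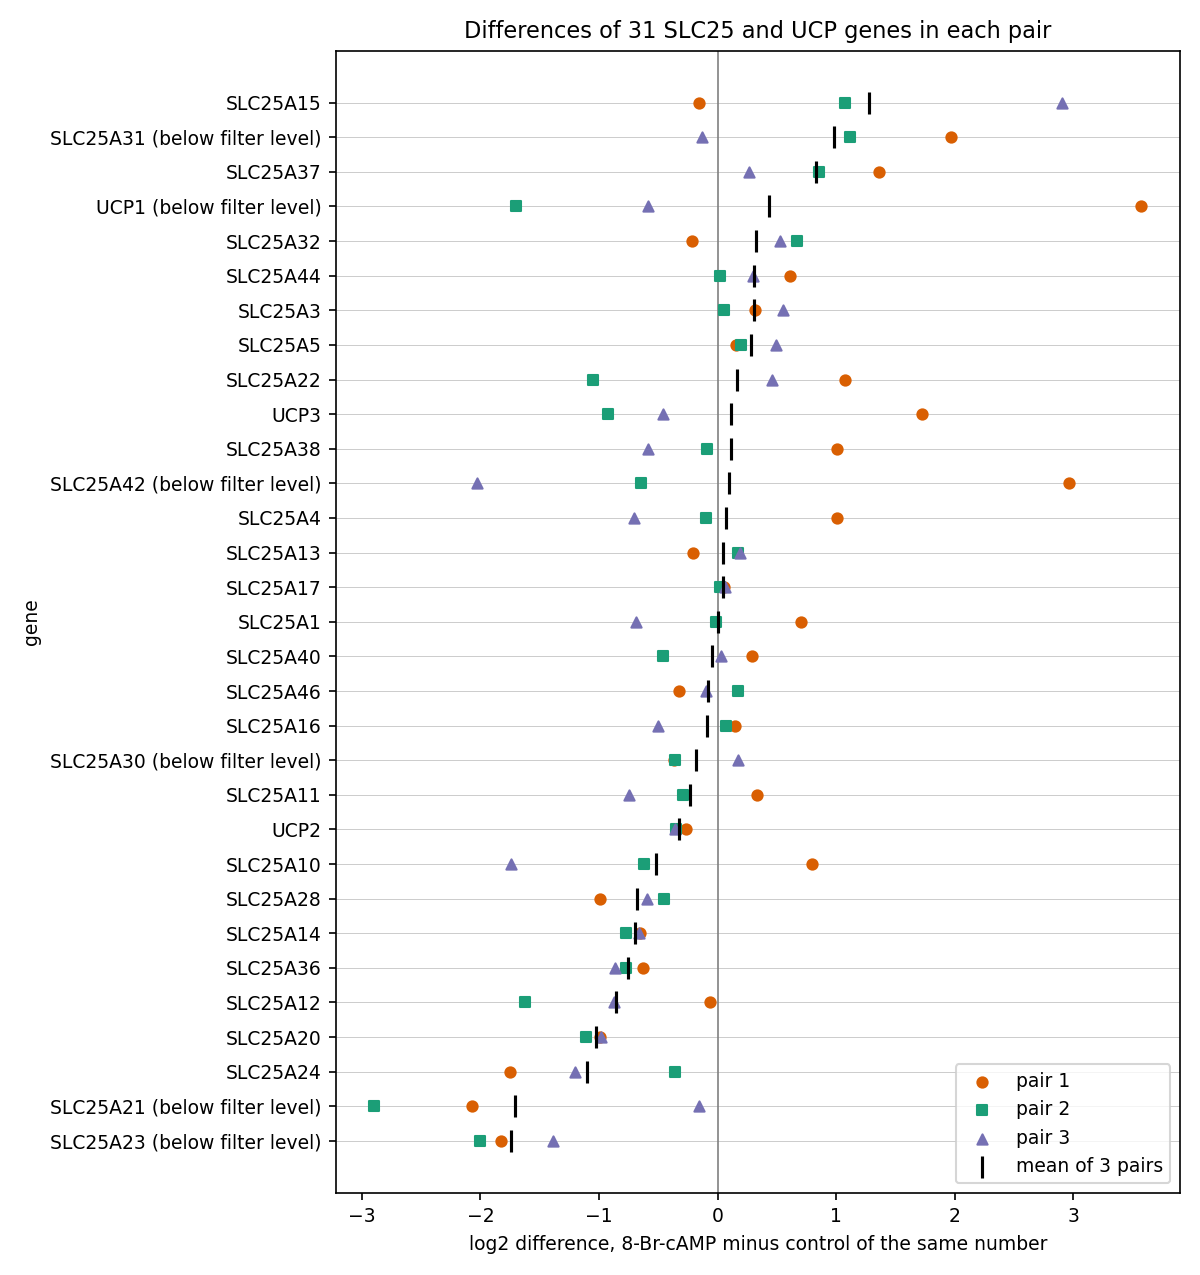
Log2 difference of each 8-Br-cAMP array from the control array of the same number (x axis) for all 31 genes, ordered by their mean, which is the vertical bar. SLC25A20, SLC25A36, SLC25A14, UCP2 and SLC25A17 have their pairs close together, and UCP1, UCP3, SLC25A42 and SLC25A10 have pair 1 far to the right of pairs 2 and 3.

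The pairs agreed on the sign for 12 of the 25 tested carriers, 5 higher and 7 lower, a share of 48% against 44.7% of all genes (15.2% higher, 29.5% lower). On the probe sets used, lower in all pairs were SLC25A12, SLC25A14, SLC25A20, SLC25A24, SLC25A28, SLC25A36 and UCP2, and higher were SLC25A3, SLC25A5, SLC25A17, SLC25A37 and SLC25A44. Other probe sets of UCP2, SLC25A17, SLC25A37 and SLC25A44 did not keep that sign in all pairs. The second kept one of SLC25A44 gave 0.54, -0.22 and 0.09. In 9 carriers (36%, against 34.4% of all genes) pair 1 had the sign opposite to both other pairs. The median difference of the 25 was 0.15 in pair 1, -0.10 in pair 2 and -0.46 in pair 3, and that of all genes tested was -0.03, -0.19 and -0.16. The series' own selection (a 2-fold or larger mean difference, with unadjusted p under 0.05) held 2 of the 25 without a block, SLC25A20 and SLC25A24, both lower. Over all genes it held 2.64% as higher and 4.38% as lower.

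Promoters are shown for 3 genes that were lower in all pairs: SLC25A36, whose window was the 1 of the family with a full cAMP response element, SLC25A20, with the smallest paired p, and SLC25A23, with the lowest difference. The sequences are RefSeq's, on GRCh38.p14, 250 bases before to 50 after the gene start, written 5′ to 3′ on the gene's strand. SLC25A36 lies at chr3:140941586-140941885 (plus strand), SLC25A20 at chr3:48898833-48899132 (minus strand) and SLC25A23 at chr19:6459743-6460042 (minus strand). Capitals mark matches to the letters TGACG (the half-site of the cAMP response element), CCGGAAG (an ETS site) and CCAAT on either strand.
SLC25A36: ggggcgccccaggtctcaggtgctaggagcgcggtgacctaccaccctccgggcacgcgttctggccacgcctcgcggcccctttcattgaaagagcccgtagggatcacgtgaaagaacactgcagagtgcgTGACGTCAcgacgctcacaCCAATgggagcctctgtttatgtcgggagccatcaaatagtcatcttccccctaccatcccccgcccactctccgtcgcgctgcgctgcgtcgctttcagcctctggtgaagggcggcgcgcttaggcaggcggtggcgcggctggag
SLC25A20: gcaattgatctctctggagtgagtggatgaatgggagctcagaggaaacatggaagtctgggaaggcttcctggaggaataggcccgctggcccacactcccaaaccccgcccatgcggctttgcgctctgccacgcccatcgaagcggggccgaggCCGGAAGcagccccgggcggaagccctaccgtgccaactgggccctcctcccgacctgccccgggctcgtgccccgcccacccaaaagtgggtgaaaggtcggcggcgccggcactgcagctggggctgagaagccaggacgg
SLC25A23: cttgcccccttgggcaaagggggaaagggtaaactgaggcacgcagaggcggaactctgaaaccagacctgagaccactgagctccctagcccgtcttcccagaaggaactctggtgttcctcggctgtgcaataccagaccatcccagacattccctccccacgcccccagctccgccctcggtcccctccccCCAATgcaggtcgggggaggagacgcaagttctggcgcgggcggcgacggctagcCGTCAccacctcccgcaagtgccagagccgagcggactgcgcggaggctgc
In SLC25A36 the first capitals are the palindrome TGACGTCA, which holds 2 overlapping half-sites, one on each strand, and a CCAAT follows. In SLC25A20 the capitals are 1 ETS match, and in SLC25A23 they are a CCAAT and a half-site at the gene start. Of the 31 carriers 27 had a promoter sequence, and each motif was searched on both strands. The full element was in 1 of the 27 (3.70%) and in 1.98% of 27305 promoters of the same length. Those 27305, 1 per symbol, were not limited to genes on the array, and differences between the shares were not tested. The half-site, which the full element contains, was in 9 (33.3%, against 25% of all promoters), CCGGAAG in 6 (22.2%, against 10.7%) and CCAAT in 13 (48.1%, against 35.7%). The palindrome of the factor NRF1 and AAGGTCA, a nuclear receptor half-site, were in 0 of the 27, against 1.36% and 3.97%. The half-site was in the windows of SLC25A3 and SLC25A44, with log2 differences of 0.31 each, and of SLC25A36 (-0.76) and SLC25A23 (-1.74), among others. None of these 4 passed on all 6 arrays, and a link between motifs and differences was not tested.

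Genes that work with the carriers were read beside them in 7 lists with 83 tested genes in all. In the paired fit 2 of the 83 passed, both higher, and 0 did without a block. Over all genes 1.73% rose and 1.96% fell in the paired fit. ALAS1, which encodes the first enzyme of heme synthesis, had 4470.6, 1841 and 1975.8 after 8-Br-cAMP, against 1484.5, 612.8 and 556.2 in controls. Every 8-Br-cAMP array was above every control array, and in the paired fit ALAS1 rose by 1.67 on the log2 scale (SE 0.18, paired adjusted p = 0.0130; 0.277 without a block). PC, pyruvate carboxylase, which makes oxaloacetate in the matrix, had 484.7, 185.1 and 158.5 after 8-Br-cAMP and 163.2, 16.6 and 15.5 in controls. It rose by 2.80 in the paired fit (SE 0.44, paired adjusted p = 0.0290; 0.328 without a block), and its groups overlapped through control 1. Controls 2 and 3 were below the filter level, so the fold is imprecise.

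Besides ALAS1, none of the other 13 tested genes in the list for heme and iron-sulfur clusters passed the paired fit. The list of 14 had a median difference of -0.36, against -0.14 of all genes tested, and 7 of its members had groups that did not overlap, against 19.9% of all genes. Of these 7, ALAS1 was higher and the others were lower, against 6.32% higher and 13.6% lower of all genes. PPOX, which oxidises protoporphyrinogen, had 124.5, 180.8 and 177.5 after 8-Br-cAMP, against 294.9, 363.2 and 346.2 in controls (log2 difference -1.07, paired adjusted p = 0.0518). HMOX1, which breaks heme down, had 99.7, 71.9 and 94.6 after 8-Br-cAMP and 239.1, 174.3 and 150.5 in controls (-1.07, paired adjusted p = 0.0825). Without the number 1 arrays 2 of the 14 rose and 6 fell, against 12.8% and 20.5% of all genes.

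In the list of citrate export and lipogenic acetyl-CoA, 1 of 13 genes passed the paired fit, which was PC. The malic enzymes ME1 and ME2, which make pyruvate from malate, differed by -0.87 and -0.74 (paired adjusted p = 0.0985 and 0.113), and their groups did not overlap. For the carnitine shuttle and beta oxidation, the pathway that SLC25A20 serves, 0 of 14 genes passed the paired fit and the median difference was -0.15. HADH, an enzyme of the beta oxidation spiral, differed by -0.73 (paired adjusted p = 0.108) and ETFDH, which passes its electrons to ubiquinone, by -0.71 (0.179). Without the number 1 arrays 0 of these 14 rose and 2 fell. The remaining lists had 0 calls in the paired fit. They were the other transporters of mitochondrial membranes (15 tested, median -0.23), the NADH shuttles (6 tested, 0.11), ornithine, glutamate and glycine metabolism (13 tested, 0.01) and mitochondrial biogenesis factors (10 tested, 0.14). Among their members with the smallest p were TSPO, an outer membrane protein that binds cholesterol (-1.01, paired adjusted p = 0.189), the serine transporter SFXN1 (0.68, 0.124), the urea cycle enzyme gene ASS1 (-1.40, 0.0713) and the transcription factor gene NRF1 (-0.75, 0.181). Without the number 1 arrays 10 of the 83 partner genes rose and 25 fell, against 12.8% and 20.5% of all genes.

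**Figure D4:**
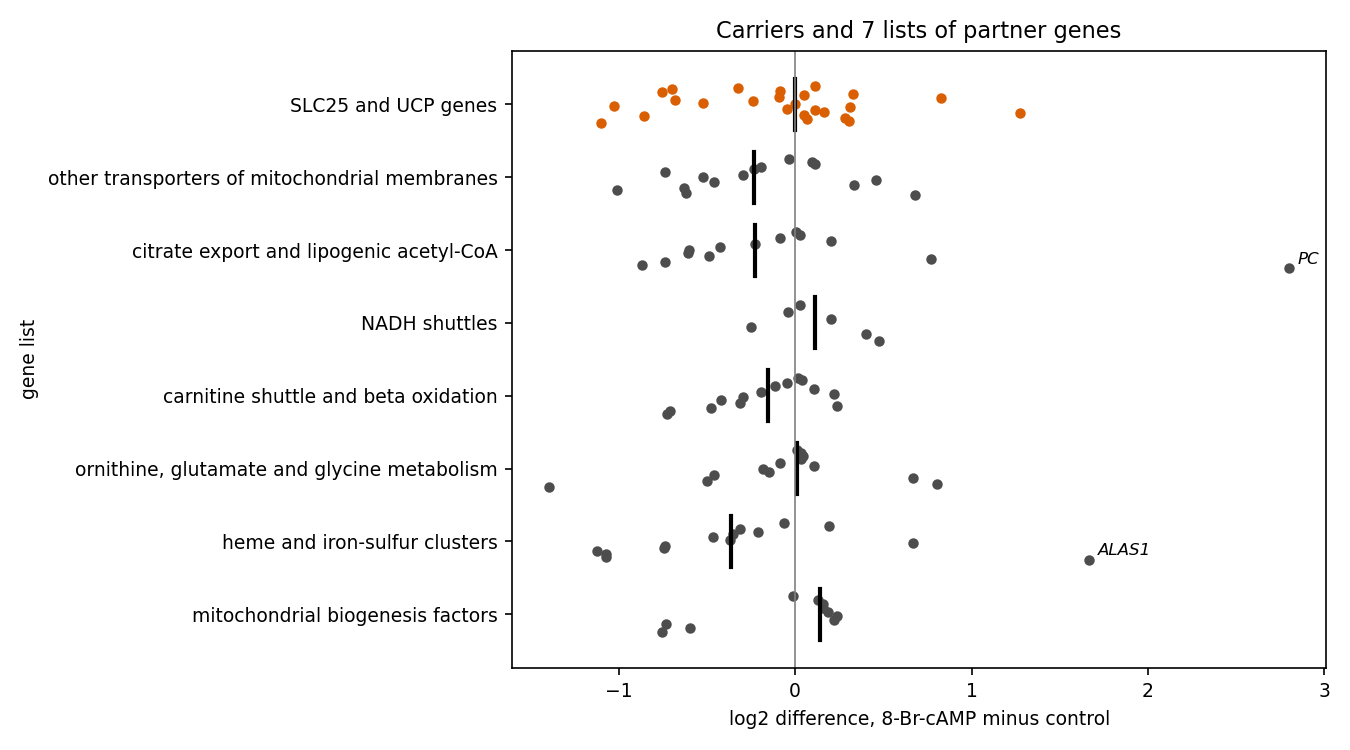
Log2 difference (8-Br-cAMP minus control, x axis) of each tested carrier and of each tested gene in 7 lists of partner genes, 1 list per row, with the median of each list as a vertical bar. PC and ALAS1, the 2 partner genes that passed the paired fit, lie to the right of the rest of their lists.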

How the data were processed

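RNA from NCI-H295A cells was hybridised to 6 Affymetrix oligonucleotide arrays, 3 per group. The authors deposited linear signal intensities for each probe set, computed with GCOS 1.3 per the submitters' processing notes. The 2% trimmed means of the columns were between 249.996 and 250.155, so no further normalization was applied. Of 22277 probe sets 62 array controls were left out. Platform annotation gave 1 symbol for 19064 of the other 22215, several for 1043, and did not list 2108. All 31 symbols of members are current RefSeq symbols.

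The log2 of each intensity was used. A filter at the 40th percentile of mean log2 signal (5.51) left 13329 probe sets, or 7927 genes. Group differences were tested 2-sided in limma 3.58.1 under R 4.3.3 (lmFit, eBayes, intensity trend), with Benjamini-Hochberg adjustment over all kept probe sets and a threshold of 0.05. The fits were tested on simulated data. The main design has no block. After subtracting group means, arrays sharing a number correlated at 0.603, 0.378 and 0.538 (numbers 1, 2 and 3), and numbers were treated as pairs. The labels do not state a pairing. These values cannot show a pairing of numbers 2 and 3, because the group means include the number 1 arrays, which stood apart in both groups. Across kept probe sets control 2 correlated at 0.885 with 8-Br-cAMP 2 and 0.884 with 8-Br-cAMP 3, and control 3 at 0.904 with each. The number of arrays limits the precision. Members were taken by symbol alone, but the choice of this family, the lists, motifs and alternatives was made with earlier results of these data known. Values on all arrays are given for members with the smallest p, the largest differences or no overlap, and for a fixed set; of partner lists at most the 3 smallest p are named.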

Additional observations from a re-analysis of the deposited data

How the results depend on the processing

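The fit of all 6 arrays without a block called 0 of the 25 carriers under every scaling, filter, floor, pseudocount, variance model and probe set rule tried, and with any 1 array left out. The selection of the design text gave 2 carriers without and with the replicate block. With the replicate block 0 passed as deposited, nor did any with quantile normalization, a common median, no filter, no intensity trend or robust variances. With that block 1 carrier, SLC25A20, passed with signals floored at their 20th percentile, with a pseudocount of 16, with the filter at the 60th percentile or the mean over the probe sets of a gene. With the replicate block on the spike-in scale 3 passed (SLC25A14, SLC25A20 and SLC25A36), all lower. That scaling moved the median of all kept probe sets to -0.50, against -0.13 as deposited. Shares of all genes were not counted for the other scalings, filters, floor, pseudocount, variance models or gene means. Without both number 1 arrays 7 passed, and 4 with no filter as well, a setting chosen after seeing the data. With 1 pair or array left out 0 to 9 passed, and the 9 came from the replicate block without pair 1, where SLC25A20 had an adjusted p of 0.000372. The cause of these shifts was not tested.

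The median difference of the carriers was 0.00 as deposited, 0.09 with quantile normalization, 0.23 with a common median, -0.37 on the spike-in scale, -0.34 without both number 1 arrays and -0.35 there with no filter, and ran from -0.34 to 0.11 with 1 pair or array left out. Of the 83 partner genes 0 passed without a block, and 7 met the selection of the design text with or without the replicate block. The replicate block gave 2 as deposited, 2 with quantile normalization, 1 with a common median, 3 with the floor and 3 with the pseudocount. On the spike-in scale it gave 12, of which 2 were higher and 10 lower. With that block 2 of 89 passed with no filter, 2 with the stricter filter (1 higher, 1 lower), 2 with robust variances and 4 with gene means. Without an intensity trend 0 passed (smallest adjusted p 0.0511), so that setting ends the calls of ALAS1 and PC. These 2 calls did not both hold with a common median or with the stricter filter. Among these settings the share of all genes was counted only as deposited. Without both number 1 arrays 35 partner genes passed, and 29 with no filter, where the share of all genes was not counted. With 1 pair or array left out 0 to 39 passed.

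Differences turned in sign on the spike-in scale, with or without the replicate block, for SLC25A1 (-0.37), SLC25A3 (-0.0655), SLC25A32 (-0.0453), SLC25A4 (-0.30) and SLC25A5 (-0.0914), among others. That scaling lowers every difference by the same amount, as in SLC25A1 from 0.00 to -0.37. SLC25A13, SLC25A17, SLC25A22, SLC25A38, SLC25A44 and UCP3, at 0.05 to 0.31 as deposited, therefore turned as well. Without both number 1 arrays 6 of the 25 turned: SLC25A1 (-0.35), SLC25A4 (-0.40), SLC25A22 (-0.30), SLC25A38 (-0.34), UCP3 (-0.69) and SLC25A46 (0.04). With 1 pair or array left out SLC25A1 ran from -0.80 to 0.45, SLC25A4 from -0.40 to 0.46 (from -0.20 to 0.28 with single arrays left out) and UCP2 from -1.01 to 0.34. No value in any setting tried turned the sign of SLC25A12, SLC25A14, SLC25A15, SLC25A20, SLC25A24, SLC25A28, SLC25A36 or SLC25A37. Signals near or below the filter level (SLC25A10, SLC25A15, SLC25A23, UCP2 and UCP3, among others) limit what can be measured there.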
